A study of Mus musculus with 3 samples.

Results

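Hand2, Nts and Alx1 transcripts marked a population among mCherry+ cells that had been sorted from the mandibular molars of Pthrp-mCherry mice. A cell was counted in it when at least 2 of these 3 genes had a UMI and the 3 together had at least 4 UMIs, when Ibsp took less than 1% of its UMIs, when Mmp3, Dio2 and Il1rl1 together had at most 2 UMIs, and when Ptprc and Epcam had none. Cells were kept if they had 500 or more genes and no more than 20% of their UMIs from mitochondrial genes, and of the 24328 kept cells 1826 met these conditions. The P15 library gave 270 of them (of 11412 kept cells), the P25 library 907 (of 8325) and the 8-week library 649 (of 4591). A UMI of each of the 3 genes was found in 231, 732 and 454 of these cells.

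The mice carried a Pthrp-mCherry knock-in allele, so that a cell that expresses PTHrP makes a red fluorescent protein, and mCherry+ cells were isolated by FACS from pooled mandibular molar tissue. All cells of the series carried this allele, and no treatment or mutant group was compared. Each time point, P15 (postnatal day 15), P25 and 8 weeks, was a single 10x Genomics 3' library from pooled mandibles, so the time points have no replicates and the number of animals in each pool is not given in the sources used here. The libraries held 12926, 8971 and 5192 deposited cells with 188157997, 169712592 and 46234378 UMIs, a median of 14253.5, 15834 and 8712.5 UMIs per cell. The P25 counts came from another Cell Ranger version per the file header, with 32293 listed genes against 22056 in the other libraries, which cannot be told apart from the time point. Unless stated otherwise, levels below are therefore UMIs per 1000000 (CPM) over the 21446 gene identifiers that the libraries share, from UMIs summed over the cells of a class in a library, and their exact 95% intervals cover counting error only.

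In the embryo, endothelin-1 from the lower pharyngeal arch acts through its receptor Ednra on neural crest cells, which then express Dlx5 and Dlx6 and, downstream of them, the basic helix-loop-helix factor Hand2, and this series of steps gives the lower jaw its identity. Alx1 encodes a homeodomain factor known for its part in the midface, and Nts encodes the precursor of neurotensin, a secreted peptide best known from the brain and gut. The tissue around the root tip of a growing molar holds mesenchymal cells that contribute to the root, the periodontal ligament and cementum, the mineralised layer that anchors the ligament to the root. The study named a cluster with these leading genes periapical, that is, around the root tip, but cell position was not measured in the libraries used here, and the population is called Hand2/Nts/Alx1 cells below.

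Nts and Alx1 lie on the same chromosome, 508 kb apart and on the same strand, with Nts at chr10:102481756-102490486 and Alx1 at chr10:102998707-103030215 of GRCm38 in the GENCODE annotation. Hand2 lies at chr8:57320983-57324633 on the plus strand, and an antisense gene, Hand2os1, overlaps it, is not among the identifiers shared by the 3 libraries and was not analysed here. The sequences upstream of the start of Nts and Hand2 are shown because cells were chosen on these genes. They come from RefSeq on GRCm38.p6, are written 5′ to 3′ on the strand of the gene, and the table used has no entry for Alx1. The Nts stretch is chr10:102490487-102490668, minus strand, 182 bases from 250 to 69 bases before the RefSeq start, since the nearest 68 bases lie inside the GENCODE gene. The Hand2 stretch is the 250 bases before the start at chr8:57320733-57320982, plus strand.
Nts: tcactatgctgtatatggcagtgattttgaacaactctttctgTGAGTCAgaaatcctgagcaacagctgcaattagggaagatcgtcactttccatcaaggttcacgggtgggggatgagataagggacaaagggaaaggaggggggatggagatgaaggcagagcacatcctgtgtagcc
Hand2: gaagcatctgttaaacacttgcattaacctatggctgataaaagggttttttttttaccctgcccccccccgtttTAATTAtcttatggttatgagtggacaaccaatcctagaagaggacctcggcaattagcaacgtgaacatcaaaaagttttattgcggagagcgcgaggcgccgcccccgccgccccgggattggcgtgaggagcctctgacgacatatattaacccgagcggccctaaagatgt
Capitals mark the match to a searched motif. In Nts this is the AP-1 motif TGANTCA, from 207 to 201 bases before the start, and in Hand2 it is the homeodomain core TAATTA, from 175 to 170 bases before the start. Over both strands, 6.75% of all 32851 promoter windows of the same length held TGANTCA and 4.84% held TAATTA. The 250 bases of Nts also held the CRE-like motif TGACATCA, present in 2.93% of the windows, and TATATA, present in 5.25%, both inside the stretch that is not printed. These matches describe the letters only.

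The cells made up 2.37% of the kept cells at P15 (95% Clopper-Pearson interval 2.09% to 2.66%), 10.9% at P25 (10.2% to 11.6%) and 14.1% at 8 weeks (13.1% to 15.2%). Of all cells that met every clause but the one on Ibsp, 32, 594 and 506 were left out because Ibsp reached 1% of their UMIs, so the Ibsp limit set the later shares more than the earlier one. The limit on Mmp3, Dio2 and Il1rl1 alone left out 4, 31 and 2 cells. When every cell was thinned to 5000 UMIs before it was chosen, the shares were 2.03%, 8.47% and 13.4%. As shares of the mesenchymal cells alone they were 3.08%, 12.5% and 14.6%. The shares depend on the FACS gate, and with a single library per time point the difference between time points was not tested.

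**Figure D1:**
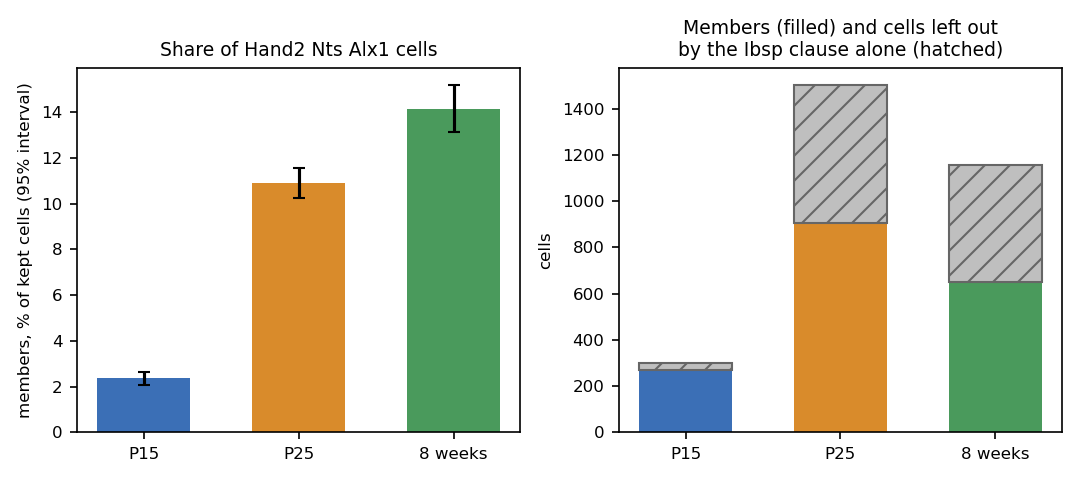
Share of kept cells in percent that were Hand2/Nts/Alx1 cells, by library (P15, P25, 8 weeks), with exact 95% Clopper-Pearson intervals as bars. The shares were 2.37%, 10.9% and 14.1%, each from 1 library, and the bars cover counting error only.

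Most of the cells also met a definition of mesenchyme, whose clauses on Ptprc and Epcam the choice had already fixed. With at least 0.3% of UMIs from Col1a1, Col1a2, Col3a1 and Sparc, which encode collagens and a collagen-binding protein, and no UMI of Ptprc, Epcam, Pecam1 and Cdh5, 264 of 270 P15 cells, 879 of 907 P25 cells and 638 of 649 8-week cells were mesenchymal. Their median depth was 18434.5, 15768 and 10815 UMIs per cell, against 15428.5, 15979 and 8978 in the other mesenchymal cells. Among the 6% of deposited cells of each library with the highest Scrublet doublet scores were 15, 104 and 34 of them, of 776, 538 and 312 such cells. A barcode of one library occurred in another 26, 16 and 13 times for the 3 pairs of libraries, and 0 barcodes occurred in all of them. A random 50% of each cell's UMIs chose 251, 797 and 525 cells, of which 240, 781 and 516 were also chosen by all UMIs.

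Of the 3 genes that chose the cells, Nts was the most abundant. Its level was 1126 CPM at P15, 1361 at P25 and 1325 at 8 weeks, against 30.8, 108 and 180 CPM in the other mesenchymal cells, and 92.2%, 96.0% and 97.4% of the cells had an Nts UMI after thinning to 5000 UMIs. Hand2 stood at 323, 211 and 274 CPM, against 2.01, 17.4 and 41.6 CPM. Alx1 stood at 154, 143 and 169 CPM, against 0.742, 10.9 and 18.9 CPM. The cells were chosen for these values, so the values carry no test. The higher levels of all 3 genes in the other mesenchymal cells at the later ages go with the 31, 584 and 501 cells of that class that met every clause except the one on Ibsp. Immune cells of the same libraries, which should lack these genes, had a Hand2 UMI in 0.642%, 0.976% and 0% of thinned cells and an Nts UMI in 1.28%, 6.34% and 0%. These shares rest on 623, 205 and 15 thinned immune cells (798, 217 and 19 in all), so the 8-week library gives little measure of this background.

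Near the threshold, the 4, 8 and 6 cells with 3 UMIs of the 3 genes had 26.5, 967 and 1186 CPM of Tnn over all listed genes, and the 3, 12 and 13 cells with 4 UMIs had 0, 1783 and 2208 CPM. Most cells lay well above it, since a limit of 6 UMIs left shares of 2.24%, 10.6% and 13.5%.

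Of the 5 further marker genes given for this population, Tnn, Prss35 and Itga11 were higher than in the other mesenchymal cells in every library, while Kit differed little and Stmn2 was lower at P15, and both were higher at P25 and 8 weeks. They were chosen with earlier results of these data known and are given without a test. Tnn, which encodes the matrix glycoprotein tenascin-N (tenascin-W), was at 1515 CPM at P15, 3147 at P25 and 4532 at 8 weeks, against 152, 570 and 493 CPM. Prss35, which encodes a serine protease-like secreted protein, was at 173, 267 and 323 CPM, against 43.3, 42.9 and 48.6 CPM. Itga11, the alpha subunit of a collagen-binding integrin, was at 86.7, 133 and 153 CPM, against 23.3, 39.2 and 31.1 CPM. For these genes the lowest of the 3 libraries of Hand2/Nts/Alx1 cells lay above the highest of the other mesenchymal cells. The level of Kit, the receptor tyrosine kinase for stem cell factor, was 30.9 CPM at P15, 151 at P25 and 256 at 8 weeks, against 24.6, 5.36 and 10.8 CPM. The level of Stmn2, a microtubule-destabilising protein known from neurons, was 10.5, 258 and 538 CPM, against 32.4, 46.9 and 136 CPM. At P15 Kit was thus only slightly higher and Stmn2 lower than in the other mesenchymal cells, and the label rests there on the other markers. Several of these markers were also found in the classes described below. Cells with Hand2, Nts and Alx1 and more Ibsp held more Stmn2 in every library (275, 396 and 734 CPM), and held Prss35 at 205, 177 and 210 CPM and Tnn at 645, 776 and 1362 CPM. Itga11 was at 73.9, 125 and 60.9 CPM and Tnn at 142, 1367 and 461 CPM in the cells with Mmp3, Dio2 and Il1rl1.

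**Figure D2:**
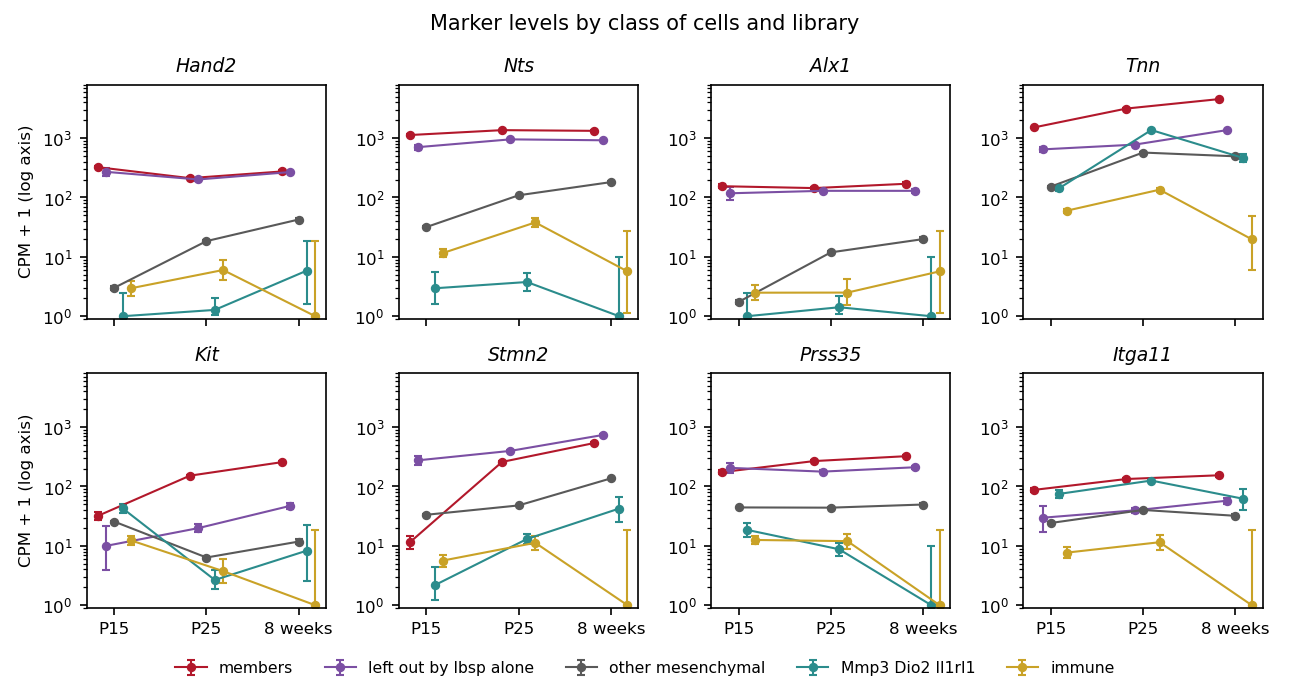
Level in CPM on a log axis of the 3 genes used to choose the cells and of further markers, in Hand2/Nts/Alx1 cells and other mesenchymal cells of each library, with exact 95% Poisson intervals as bars. Tnn, Prss35 and Itga11 are higher in the Hand2/Nts/Alx1 cells in all 3 libraries, while at P15 Kit is close to the other class (30.9 against 24.6 CPM) and Stmn2 below it (10.5 against 32.4 CPM).

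Cells of the population differed among themselves. After thinning to 5000 UMIs, a Kit UMI was found in 8.21% of the P15 cells, 43.3% of the P25 cells and 59.1% of the 8-week cells, against 8.76%, 2.41% and 4.05% of the other mesenchymal cells and 2.73%, 0.488% and 0% of immune cells. Without thinning, the shares with Kit were 25.6%, 69.9% and 73.2% against 20.2%, 5.93% and 5.56% of the other mesenchymal cells. A Stmn2 UMI was found in 2.61%, 45.7% and 69.6% of the thinned cells, against 6.47%, 9.84% and 19.4% of the other mesenchymal cells, and in 6.30%, 58.4% and 77.2% without thinning. At P15 the Kit share was thus above that of the other mesenchymal cells only without thinning. The Stmn2 share at P15 was below theirs after thinning and without it (6.30% against 9.93%). The share with a Tnn UMI after thinning was 67.5%, 92.6% and 98.1%. In thinned immune cells it was 9.79%, 16.1% and 6.67% for Tnn, and 1.12%, 2.44% and 0% for Stmn2. Per cell, the 10th percentile, median and 90th percentile of Tnn were 0, 6.89 and 41.2 UMIs per 10000 at P15, 3.29, 25.2 and 61.7 at P25, and 9.09, 39.0 and 84.4 at 8 weeks. Nts spread less, with medians of 10.1, 13.0 and 12.4 UMIs per 10000. Prss35 was found more often in thinned cells with a Kit UMI than in those without, in 72.7% of 22 against 39.4% of 246 cells at P15, in 64.9% of 390 against 51.3% of 511 at P25, and in 78.6% of 365 against 54.2% of 253 at 8 weeks. Cells of a library are not replicates, and these shares carry no test.

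Ibsp, which encodes bone sialoprotein of the mineralised matrix, varied within the population below its limit. Its level was 413 CPM at P15 and 2589 and 2555 CPM at the later ages, and 34.0%, 80.2% and 89.2% of the thinned cells had an Ibsp UMI. Immune cells held Ibsp at 688, 1293 and 103 CPM and in 31.3%, 31.7% and 46.7% of thinned cells, so that at P15 the level in the Hand2/Nts/Alx1 cells was not above that of cells that should lack it. At P15, 92 of the 270 cells had no Ibsp UMI, against 94 of 907 at P25 and 36 of 649 at 8 weeks. Along bins of the Ibsp share (0, under 0.1%, 0.1% to 0.5% and 0.5% to 1%), with CPM taken over all genes listed for a library, the P25 levels of Tnn were 3564, 3811, 2775 and 1629 CPM and the 8-week levels 6405, 5527, 4298 and 2743 CPM. Stmn2 ran the other way, from 17.0 over 138 and 357 to 356 CPM in the P25 cells and from 136 over 371 and 594 to 810 CPM in the 8-week cells. Hand2 and Nts changed little by comparison, with Hand2 at 243, 273, 275 and 275 CPM at 8 weeks and Nts at 1736, 1274, 1327 and 1279 CPM. Pthlh, which encodes PTHrP, was lowest in the bin under 0.1% at P25, with 95.7, 43.1, 94.6 and 185 CPM. At 8 weeks it was at 33.3, 41.8, 96.1 and 170 CPM. The 2 highest bins at P15 held 12 and 8 cells, too few to read a level from.

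**Figure D3:**
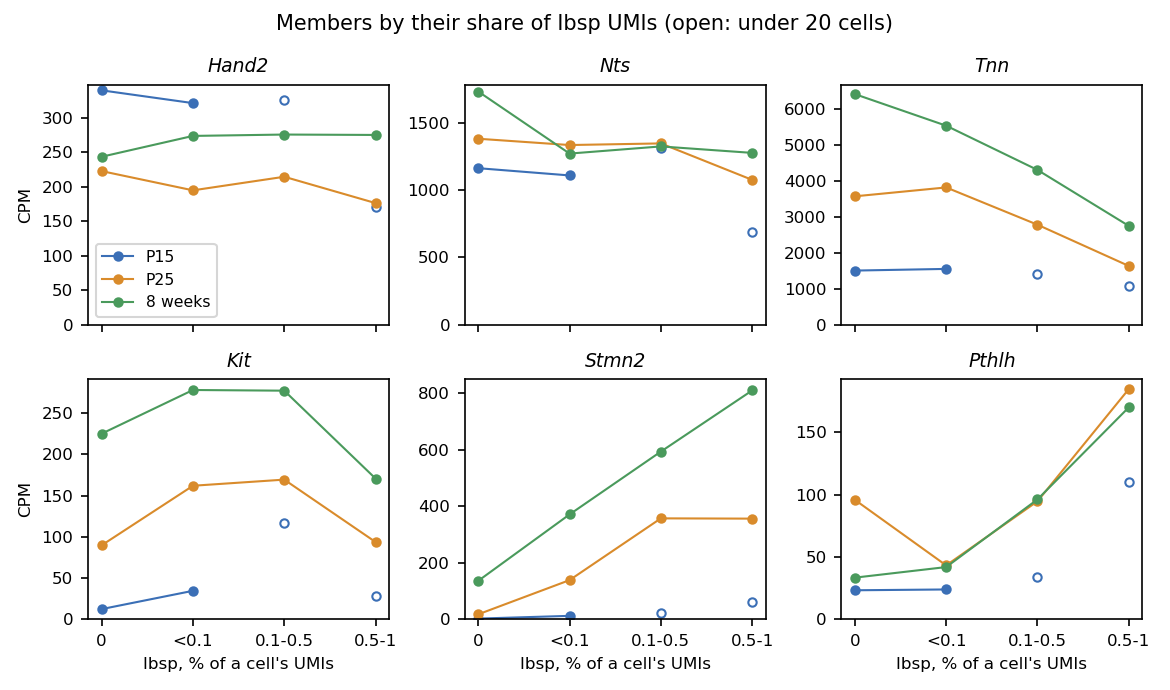
Level in CPM of Hand2, Nts, Tnn, Kit, Stmn2 and Pthlh in Hand2/Nts/Alx1 cells by the share of their UMIs from Ibsp, one line per library, with open circles for bins of fewer than 20 cells. At P25 and 8 weeks Tnn is lower in the highest Ibsp bin (1629 and 2743 CPM) than in the cells with no Ibsp UMI (3564 and 6405 CPM), and Stmn2 is higher.

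The cells carried less of the reporter's own gene than their neighbours. Pthlh was at 26.9 CPM at P15, 99.9 at P25 and 88.9 at 8 weeks, against 170, 237 and 269 CPM in the other mesenchymal cells. The difference passed the test (log2 fold change -1.81, SE 0.29, edgeR adjusted p = 0.0453) and was lost without the 8-week library, without P25, without the library block, without the low-count filter and against cells with the same Ibsp limit (log2 fold change -1.39, adjusted p = 0.067). The mCherry transcript was at 81.8, 228 and 281 CPM, against 330, 408 and 611 CPM (log2 fold change -1.33, SE 0.24, adjusted p = 0.0562). In immune cells of the same libraries Pthlh was at 34.8, 53.3 and 9.38 CPM and mCherry at 76.0, 63.5 and 4.69 CPM, so that both genes in the P15 cells stood at the level of cells that should lack them. At least 1 mCherry UMI was found in 137 of 270, 658 of 907 and 521 of 649 cells. Pth1r, the receptor of PTHrP, was at 62.5, 57.4 and 66.9 CPM, against 66.7, 50.1 and 46.4 CPM, and did not pass the test.

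To find which other genes set the population apart, UMIs of the cells and of the other mesenchymal cells (8306, 6140 and 3738 cells) were summed per library, and the 6 sums were compared with edgeR's quasi-likelihood test with the library as a block. Cells were put in their class by counts of these same libraries, so the test concerns genes outside the choice, and its replicates are the 3 libraries of different age. Of 13163 genes, 122 were higher (0.927% of the genes tested) and 436 lower (3.31%) by both thresholds, an adjusted p below 0.05 and a fold change of more than 1 on the log2 scale. At the adjusted p alone, 288 were higher (2.19%) and 605 lower (4.6%). The result rested on the P25 library, since without it no gene passed, while 185 genes were higher and 749 lower at an unadjusted p under 0.05 with the same size. Without P15 the counts were 352 and 1006, and without 8 weeks 57 and 257. Against all other kept cells, immune and epithelial cells included, 153 of 13560 genes were higher (1.13%) and 1042 lower (7.68%).

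Among called genes with a mean of at least 50 CPM in the Hand2/Nts/Alx1 cells, the 12 with the largest fold change over the other mesenchymal cells were named. Efnb2, which encodes ephrin-B2, a membrane ligand of Eph receptors, was at 124, 170 and 228 CPM against 39.4, 38.4 and 43.1 CPM (log2 fold change 2.06, SE 0.16, adjusted p = 0.0116). Adgrl3, an adhesion G protein-coupled receptor (latrophilin-3), was at 80.0, 118 and 175 CPM against 26.5, 28.8 and 42.2 CPM (1.89, SE 0.11, adjusted p = 0.00874). Adgrg6, an adhesion receptor known from myelination and cartilage (Gpr126), was at 74.6, 54.6 and 31.8 CPM against 15.2, 11.7 and 13.7 CPM (1.93, SE 0.25, adjusted p = 0.0333). The rule asked for the same direction in all 3 libraries. For all 3 genes each library of Hand2/Nts/Alx1 cells thus stood above the other mesenchymal cells of the same library. Only Adgrg6 was lower at each later age. Matn2, which encodes the matrix protein matrilin-2, was at 132, 124 and 140 CPM against 39.0, 48.9 and 34.3 CPM (1.69, SE 0.16, adjusted p = 0.0183). Crabp2, which carries retinoic acid in the cell, was at 100.2, 186 and 175 CPM against 45.7, 62.0 and 34.7 CPM (1.67, SE 0.25, adjusted p = 0.0413). Sytl2, a vesicle-trafficking protein, was at 89.7, 84.3 and 136 CPM against 30.2, 29.4 and 36.9 CPM (1.65, SE 0.10, adjusted p = 0.00874). These genes had no overlap between the classes, which the choice of the largest fold changes favours. The other 6 named by the rule were Fam105a, Rac3, Podnl1, Rhou, Cttnbp2 and Dlg2, with log2 fold changes from 1.60 to 1.91. Rac3 and Rhou are small GTPases, Cttnbp2 binds cortactin, and Dlg2 is a scaffold protein of synapses. Of the 12 genes, 5 remained past the threshold against the 7316, 4972 and 2865 mesenchymal cells below the same Ibsp limit (Efnb2, Fam105a, Cttnbp2, Matn2 and Sytl2), 9 without the 8-week library, 7 without the library block (Adgrl3, Crabp2, Cttnbp2, Dlg2 and Podnl1 were lost) and 0 without P25. Dlg2 and Rac3 were lost without the highest Scrublet scores, and Crabp2, Dlg2 and Rac3 without the low-count filter.

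On the lower side the rule named 8 genes. Bglap and Bglap2, which encode osteocalcin, were at 37.6, 359 and 364 CPM and at 50.6, 265 and 356 CPM, against 1100, 3481 and 5272 CPM and 895, 2131 and 5014 CPM (log2 fold changes -3.99, SE 0.34, and -3.66, SE 0.25, adjusted p = 0.0182 and 0.0114). Their reads, and those of Bglap3, can be split between near-identical copies, so the share of each is uncertain. Ifitm5, a membrane protein of osteoblasts, was at 9.39, 21.4 and 6.07 CPM against 74.7, 187 and 102 CPM (-3.38, SE 0.24, adjusted p = 0.0117). Dpt, which encodes the matrix protein dermatopontin, was at 1.81, 7.39 and 7.69 CPM against 20.9, 90.8 and 131 CPM (-3.81, SE 0.14, adjusted p = 0.0087). Pi16, a peptidase inhibitor that marks fibroblasts around vessels and in the adventitia, was at 0.181, 0.751 and 13.4 CPM against 3.77, 26.1 and 146 CPM (-4.01, SE 0.36, adjusted p = 0.0185). The chemokine Cxcl5 was at 0.903, 6.88 and 1.75 CPM against 12.04, 122 and 104 CPM (-4.65, SE 0.39, adjusted p = 0.0171). 1500015O10Rik was also among the 8 named genes. The rule asked for the same direction in all 3 libraries, so the Hand2/Nts/Alx1 cells were the lower class in each for all 8. Against the cells below the same Ibsp limit, 7 of the 8 remained called, and without P25 and without the library block 0 did. Without the 8-week library 5 did, and Bglap, Bglap2 and 1500015O10Rik were lost. The call of 1500015O10Rik was also lost without the highest Scrublet scores and without the low-count filter.

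**Figure D4:**
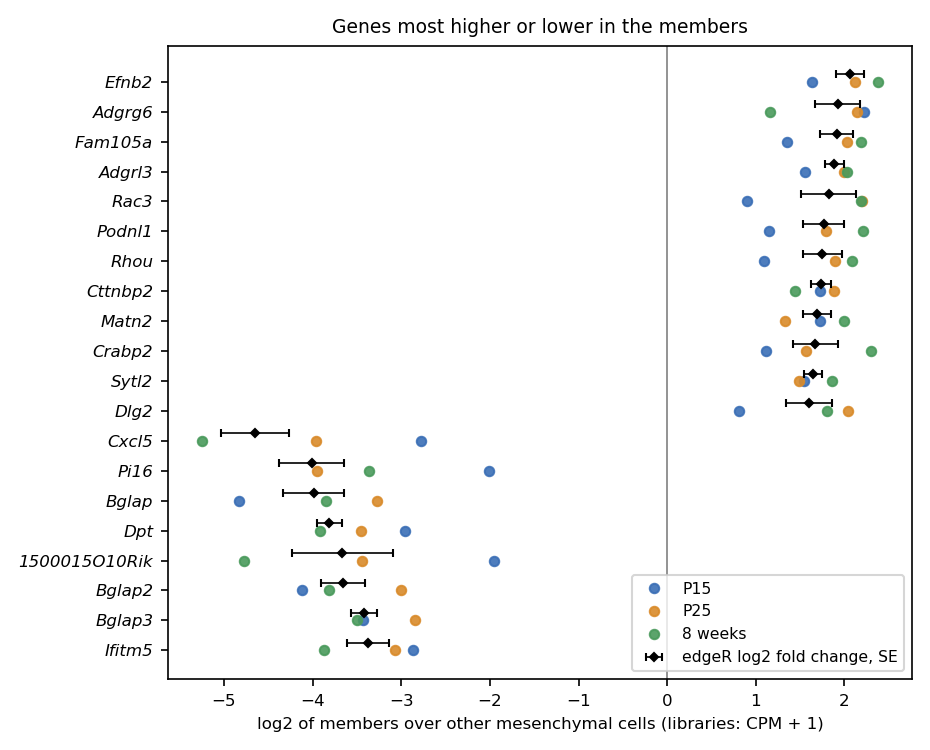
Log2 ratio, from log2(CPM + 1), of Hand2/Nts/Alx1 cells to other mesenchymal cells, one point per library. Shown are the 12 genes named as higher and the 8 named as lower. Diamonds give the edgeR log2 fold change with its standard error, from 2.06 for Efnb2 to -4.65 for Cxcl5.

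Lists of genes were then read against these shares of all genes, 2.19% higher and 4.6% lower, and against the median log2 fold change of all genes, 0.0058. Of the 13 tested genes of the endothelin to Hand2 pathway, 1 rose and 3 fell, with a median of -0.01. The receptor gene Ednra was at 53.8, 32.7 and 43.0 CPM against 44.1, 23.5 and 31.6 CPM (log2 fold change 0.39, SE 0.07, adjusted p = 0.0495), and this call was lost under most alternatives, among them the same Ibsp limit (adjusted p = 0.102). Dlx5, which stands upstream of Hand2 in the embryo, was at 135, 51.8 and 63.5 CPM against 130, 87.3 and 126 CPM, and Dlx6 at 74.2, 26.9 and 38.3 CPM against 53.5, 49.5 and 78.1 CPM. Neither passed the test (log2 fold changes -0.57 and -0.49, adjusted p = 0.203 and 0.417), and the classes overlapped. The genes that fell were all transcription factors. Barx1, a homeobox factor of the molar-forming jaw mesenchyme, was at 52.4, 51.9 and 20.8 CPM against 376, 304 and 317 CPM (-3.09, SE 0.31, adjusted p = 0.0231). Gsc, a homeobox factor of the first pharyngeal arch, was at 11.6, 5.76 and 2.56 CPM against 47.4, 38.6 and 38.9 CPM (-2.79, SE 0.36, adjusted p = 0.032). Mef2c, an effector of endothelin signalling, was at 123, 121 and 142 CPM against 315, 244 and 311 CPM (-1.18, SE 0.08, adjusted p = 0.00889). Edn1 and Hand1 were too low to test. Without P25 all 4 calls were lost, without 8 weeks that of Ednra, and against cells below the Ibsp limit that of Gsc as well.

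Among 35 other craniofacial transcription factors, 3 rose and 13 fell, with a median of -0.59. Alx4, a relative of Alx1, was at 21.5, 21.7 and 22.1 CPM against 2.31, 3.05 and 4.91 CPM (log2 fold change 2.73, SE 0.24, adjusted p = 0.0147). Tfap2a, a factor of the neural crest, was at 13.7, 23.8 and 27.5 CPM against 1.29, 2.61 and 4.33 CPM (3.07, SE 0.19, adjusted p = 0.00874). Pax9, a paired-box factor that tooth development needs, was at 145, 162 and 220 CPM against 95.8, 96.2 and 136 CPM (0.67, SE 0.06, adjusted p = 0.0159). Among the factors that fell were Osr1, Tfap2b, Lhx6, Six2, Tbx15, Nr2f2, Pitx1, Foxc1, Lhx8, Osr2, Foxc2 and Sox9, with log2 fold changes of -3.40 for Tfap2b, -2.77 for Lhx6, -2.61 for Six2, -2.39 for Pitx1 and -1.07 for Sox9. Lhx6, Lhx8, Barx1 and Pitx1 are known from the oral side of the first arch, where molars form. All of these calls were lost without P25, those of Osr1, Tbx15, Lhx8 and Foxc2 without 8 weeks, and those of Osr1, Tbx15, Nr2f2, Foxc1, Lhx8, Osr2 and Sox9 against cells below the Ibsp limit.

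Genes within 1000 kb of Nts, Alx1 and Hand2 were counted next. Of 8 tested genes, 4 rose and 0 fell. Rassf9, which lies 21736 bases from Nts on the same chromosome, was at 35.0, 42.4 and 62.7 CPM against 3.34, 5.81 and 15.1 CPM (log2 fold change 2.74, SE 0.29, adjusted p = 0.0249). The other genes that rose lie on the chromosome of Hand2, Sap30 at 158074 bases from it, Hmgb2 at 187274 and Cep44 at 769936 with other genes between, and are known from chromatin or, for Cep44, the centrosome: Hmgb2 (469, 359 and 262 CPM against 289, 177 and 116 CPM, log2 fold change 0.95, adjusted p = 0.021), Sap30 (1.12, adjusted p = 0.0219) and Cep44 (0.90, adjusted p = 0.0386). Rassf9 was lost without the library block and without P25, and Hmgb2, Sap30 and Cep44 against cells below the Ibsp limit and without P25.

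The genes that process, release and receive neurotensin were no higher beside this level of Nts. The receptor genes Ntsr1 and Ntsr2 had 0 CPM in all 3 sums of the cells. Pcsk1 and Pcsk2, which encode the convertases of the regulated secretory path, were at or below 0.674 CPM. Cpe, the carboxypeptidase that trims peptide hormones, was at 88.1, 247 and 207 CPM against 358, 630 and 497 CPM (log2 fold change -1.55, SE 0.17, adjusted p = 0.024). The convertase gene Pcsk5 was at 24.6, 32.5 and 35.7 CPM against 50.1, 72.0 and 106 CPM (-1.26, SE 0.13, adjusted p = 0.0184). In all, 0 of 9 tested genes rose and 2 fell, with a median of -1.26. Furin, at 43.9, 61.0 and 67.0 CPM against 61.2, 60.8 and 47.4 CPM, and the sorting receptor gene Sort1, at 18.4, 18.8 and 21.3 CPM against 24.0, 16.9 and 15.2 CPM, overlapped between classes. Cpe and Pcsk5 were lost without P25 and without the library block.

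A few genes known from neurons stood out while the neuronal list as a whole did not. Of 12 tested neuronal-type genes, 1 rose and 2 fell, with a median of -0.36. Stmn4, a relative of Stmn2, was at 37.0, 42.7 and 44.8 CPM against 1.70, 3.40 and 5.54 CPM (log2 fold change 3.68, SE 0.32, adjusted p = 0.0183). Calca, which encodes calcitonin and the peptide CGRP, was at 39.9, 45.0 and 59.7 CPM against 11.2, 7.23 and 14.1 CPM (2.18, SE 0.17, adjusted p = 0.0114). Both genes were higher in every library with no overlap, and both calls held in every alternative but the one without P25. Uchl1, a ubiquitin hydrolase of neurons, was at 45.9, 14.7 and 6.07 CPM against 4.49, 2.35 and 3.36 CPM (2.41, adjusted p = 0.079). Tubb3, a neuronal tubulin, was at 28.7, 148 and 194 CPM against 128, 115 and 91.8 CPM, on different sides at P15 and later (-0.15, adjusted p = 0.911). Nrcam and Cadm1, both adhesion molecules, fell, and were lost without 8 weeks or P25. Genes that define neurons were near 0 in the cells, with Elavl3 at most 0.188 CPM, Elavl4 at most 0.181 CPM, and Snap25, Isl1 and Th at 0. The neuron list summed to 59.9, 48.6 and 60.1 CPM, most of it Calca, and its other called member, Tac1, which encodes substance P, fell.

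The Kit list held the ligand of Kit and genes downstream of it and of other receptor tyrosine kinases. Of its 12 tested genes, 0 rose and 3 fell, with a median of -0.92. Spry1, a feedback inhibitor of these receptors, was at 3.97, 7.57 and 4.18 CPM against 30.4, 36.8 and 32.0 CPM (log2 fold change -2.66, SE 0.16, adjusted p = 0.00874). Dusp6, a phosphatase of ERK, and Etv5, a transcription factor induced by ERK signalling, also fell (-0.93 and -0.99, adjusted p = 0.019 and 0.0326). The Kit ligand gene Kitl was at 20.04, 7.14 and 3.91 CPM against 30.7, 15.04 and 25.1 CPM and did not pass (-1.35, adjusted p = 0.128). Of 9 tested FGF genes, 0 rose and 3 fell (Fgf1, Fgf18 and Fgf9), and the sign of Fgf9 turned to 0.56 against cells below the Ibsp limit (adjusted p = 0.241), where it was no longer called. Etv5, Fgf1 and Fgf18 were lost there too. Without 8 weeks Etv5, Fgf1, Fgf18 and Fgf9 were lost, and without P25 all 6 genes.

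Of 26 tested genes of ligament and soft matrix, 1 rose and 8 fell, with a median of -0.71. Postn, which encodes periostin, an abundant protein of the periodontal ligament, was at 2433, 4523 and 5339 CPM against 1063, 2198 and 1434 CPM (log2 fold change 1.37, SE 0.19, adjusted p = 0.0378). Col12a1, a collagen of ligaments, ran beside it at 1470, 1961 and 2743 CPM against 929, 1071 and 705 CPM and missed the threshold (1.15, adjusted p = 0.0928). The genes that fell were Tnxb, Col14a1, Scx, Thbs4, Tnc, Aspn, Bgn and Dcn, so that Tnc (-1.94), which encodes tenascin-C, and Tnn, which encodes another tenascin, lay on opposite sides. Aspn, Bgn and Dcn encode small leucine-rich proteoglycans, of which Fmod (-2.24, adjusted p = 0.142) and Lum (0.08, adjusted p = 0.888) did not pass the test and Kera was too low to test. Of 17 mineral genes, 0 rose and 9 fell (Bglap, Bglap2, Ifitm5, Phex, Smpd3, Col11a2, Enpp1, Ank and Sparc), with a median of -3.11. The Ibsp limit bears on this count, because the comparison cells had none, and against cells below the limit Phex, Enpp1 and Sparc were lost. Of 18 genes of actin and contraction, 3 rose and 1 fell (Tpm1), with a median of 0.36. Csrp2, which encodes an actin-associated LIM protein, was at 872, 1105 and 1084 CPM against 389, 319 and 316 CPM (1.57, SE 0.14, adjusted p = 0.0172), and Cald1 and Csrp1 rose less (0.79 and 0.50, adjusted p = 0.049 and 0.0321). Postn, Tnxb, Thbs4, Csrp2, Cald1, Csrp1 and Tpm1 were lost against cells below the Ibsp limit, where Csrp2 had an adjusted p of 0.054. Without 8 weeks the calls of Tnxb, Scx, Dcn, Bglap, Bglap2, Cald1 and Csrp1 were lost, without P15 those of Postn and Sparc, and without P25 all calls of these lists.

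In the signalling lists most called genes fell, as did most called genes among all those tested (605 lower and 288 higher). Of 32 Wnt ligands, receptors and targets, 3 rose and 6 fell, with a median of -0.06. Wnt11, a ligand known for signalling without beta-catenin, was at 31.8, 56.6 and 44.9 CPM against 11.4, 18.9 and 12.3 CPM (log2 fold change 1.63, SE 0.10, adjusted p = 0.00874). Rspo3, which strengthens Wnt signals at the receptor, was at 44.6, 6.63 and 4.18 CPM against 12.4, 2.99 and 1.55 CPM (1.48, adjusted p = 0.0281), and Rnf43, which removes Wnt receptors, at 6.50, 8.01 and 7.15 CPM against 1.74, 1.48 and 2.44 CPM (1.97, adjusted p = 0.0274). The genes that fell were Lgr5, Wnt10a, Sp5, Wnt6, Tcf7 and Wnt5a. Of 13 Wnt inhibitors, 0 rose and 1 fell (Sostdc1). Wif1, the most abundant of them, was at 1349, 3360 and 4295 CPM against 2931, 4331 and 5676 CPM and did not pass (-0.64, SE 0.16, adjusted p = 0.0981). Of 23 BMP genes 0 rose and 4 fell (Fst, Grem1, Bambi and Id4), of 12 hedgehog genes 1 fell (Gli1), and of 14 integrin genes 2 fell (Itga10 and Itgb8). Of 6 osteoclast cytokine genes 2 fell, Il34 and Tnfrsf11b (-2.77), which encodes osteoprotegerin. Rspo3, Lgr5, Tcf7, Wnt5a and Sostdc1 were lost against cells below the Ibsp limit. Without 8 weeks Rspo3, Lgr5, Sp5, Tcf7, Sostdc1, Id4 and Il34 were lost, and without P25 all of these calls.

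The study's own marker lists were drawn from these libraries and are no independent evidence. Of its first periapical list, 3 genes could be tested outside the choice, and 2 rose (Csrp2 and Cald1). Of 13 tested markers of its other periapical clusters, 0 rose and 3 fell (Itgbl1, Wnt5a and Spon1). Of 14 markers of cementoblast precursors, 0 rose and 4 fell (Crabp1, Thbs4, Bambi and Vcan). All of these calls were lost without P25, those of Cald1 and Vcan without 8 weeks, and those of Csrp2, Cald1, Wnt5a, Spon1 and Thbs4 against cells below the Ibsp limit.

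Markers of other cell types were read in the same sums. Of 9 immune, 5 erythrocyte and 3 endothelial genes tested, 0 were called in either direction, and the endothelial Pecam1 is absent from the other class by its definition. The immune list summed to 156, 19.8 and 14.0 CPM against 274, 20.5 and 27.2 CPM, with S100a9 its most abundant gene at P15 (77.1 CPM). The epithelial list summed to 361, 157 and 52.2 CPM against 398, 218 and 70.5 CPM, led by Krt14. The immune list was lower in the Hand2/Nts/Alx1 cells in every library, and so was the epithelial one. Of 8 epithelial genes 1 rose, Cdh1, which encodes E-cadherin, at 8.67, 4.82 and 8.23 CPM against 2.85, 1.77 and 1.78 CPM (log2 fold change 1.73, adjusted p = 0.0317), a call lost against cells below the Ibsp limit, without 8 weeks and without P25. The erythrocyte list summed to 79.8, 1105 and 21.2 CPM against 815, 685 and 19.6 CPM, led by Hbb-bs. Of 5 Schwann cell genes 2 fell (Gpm6b and Lgi4), and of 9 mural genes 1 fell (Rgs4), all lost without 8 weeks or P25. Of 17 genes of dissociation stress, 3 fell (Atf3, Nr4a1 and Ier2), and the list summed to 10492, 14778 and 11686 CPM against 16810, 20513 and 29658 CPM, led by Fos. All 3 were lost against cells below the Ibsp limit and without P25, Nr4a1 and Ier2 also without P15, and the part of this gap in the other differences was not tested. Of 19 cell cycle genes, 2 rose (Hmgb2 and Mcm2) and 0 fell, with a median of 0.86. Hmgb2 was lost against cells below the Ibsp limit, Mcm2 without 8 weeks, and both without P25. Mki67 was at 43.7, 45.9 and 47.3 CPM against 37.7, 22.9 and 10.2 CPM (1.11, adjusted p = 0.165), and 8.58%, 5.22% and 2.43% of thinned cells had a UMI of it, against 6.04%, 2.96% and 1.10%.

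Cells that shared the Hand2, Nts and Alx1 transcripts but carried 1% or more of their UMIs from Ibsp (32, 594 and 506 cells) were compared next, a comparison added after the data had been seen. They held Hand2 at 269, 200 and 267 CPM and Nts at 704, 952 and 919 CPM, and Tnn at 645, 776 and 1362 CPM. Of 11508 genes, 415 were higher in the Hand2/Nts/Alx1 cells (3.61%) and 266 lower (2.31%) by both thresholds, and 858 (7.46%) and 716 (6.22%) by the adjusted p alone. Without the library block the first counts were 123 and 130, and with 1 library left out they ranged from 170 to 570 and from 139 to 333. Pthlh was at 26.9, 99.9 and 88.9 CPM against 226, 487 and 549 CPM (log2 fold change -2.70, SE 0.14, adjusted p = 3.1e-05). Of 15 mineral genes, 2 were higher (Alpl and Sparc) and 4 lower (Spp1, Enpp1, Ank and Runx2). Enpp1, which makes the mineralisation inhibitor pyrophosphate, was at 14.4, 14.8 and 11.1 CPM against 253, 256 and 323 CPM (-4.45, SE 0.16, adjusted p = 5.11e-06), and Ank, which carries pyrophosphate or its precursor out of the cell, at 39.7, 64.4 and 60.8 CPM against 382, 472 and 465 CPM (-3.09, SE 0.10, adjusted p = 6.25e-07). Both were lower in all 3 libraries by a wide margin. The classes were split by their Ibsp share, so differences in genes that go with Ibsp follow in part from this choice.

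The same comparison separated genes of receptor tyrosine kinase feedback. Of 12 genes of the Kit list, 7 were lower in the Hand2/Nts/Alx1 cells (Etv4, Etv5, Spry1, Spry2, Spry4, Dusp6 and Spred1) and 1 was higher (Kitl). Spry1 was at 3.97, 7.57 and 4.18 CPM against 30.5, 47.1 and 35.1 CPM (log2 fold change -2.89, SE 0.15, adjusted p = 4.5e-06), and Etv5 at 5.60, 4.44 and 4.86 CPM against 26.9, 24.8 and 24.6 CPM (-2.47, SE 0.18, adjusted p = 2.52e-05). Kit itself, a marker that the choice of the population had in view, was at 30.9, 151 and 256 CPM against 8.98, 18.9 and 46.2 CPM. Of 24 ligament and matrix genes, 9 were higher and 1 lower, with Thbs2, which encodes thrombospondin-2, at 467, 249 and 240 CPM against 89.8, 63.3 and 52.6 CPM (2.06, SE 0.10, adjusted p = 2.99e-06). Of 17 actin genes 7 were higher and 0 lower, with Tagln, which encodes transgelin, at 248, 302 and 358 CPM against 140, 86.4 and 110 CPM (1.43, SE 0.20, adjusted p = 0.0127). Stmn4 was at 37.0, 42.7 and 44.8 CPM against 0, 1.68 and 1.03 CPM, while Stmn2 was lower in the Hand2/Nts/Alx1 cells, with 10.5, 258 and 538 CPM against 275, 396 and 734 CPM. Of 17 stress genes 7 were higher. The calls of Enpp1, Ank, Spry1, Etv5 and Thbs2 held in every alternative run for this comparison. That of Pthlh was lost without the library block, and that of Tagln without 8 weeks. Leaving out the highest Scrublet scores and choosing cells on another random part of the UMIs were not tried here.

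All Ibsp-high cells (1001, 1184 and 882 cells with at least 1% of UMIs from Ibsp) were compared as well. Here too the classes were split by their Ibsp share. Of 12197 genes, 451 were higher (3.7%) and 492 lower (4.03%) in the Hand2/Nts/Alx1 cells by both thresholds. Without the library block the counts were 264 and 344, and with 1 library left out they ranged from 78 to 545 and from 124 to 595. Ogn, which encodes the proteoglycan osteoglycin, was at 947, 772 and 803 CPM against 81.9, 74.9 and 58.0 CPM (log2 fold change 3.48, SE 0.12, adjusted p = 0.00168). Adgrg6 was at 74.6, 54.6 and 31.8 CPM against 2.50, 3.09 and 2.02 CPM (4.29, SE 0.20, adjusted p = 0.00248). Sulf2, a sulfatase of heparan sulfate, was at 128, 65.7 and 54.3 CPM against 5.87, 7.70 and 6.55 CPM (3.46, SE 0.32, adjusted p = 0.00874), a call lost without P25. No library overlapped for these genes, which the choice of the largest fold changes favours. Spp1, which encodes osteopontin, was at 103, 169 and 45.9 CPM against 3126, 4997 and 4016 CPM (-5.48, SE 0.40, adjusted p = 0.00559), and Dmp1, a matrix protein of cementoblasts and osteocytes, at 4.15, 20.4 and 1.62 CPM against 320, 246 and 168 CPM (-5.16, SE 0.68, adjusted p = 0.0168). Spp1 was lost without P15, and Dmp1 without P15 or 8 weeks. Megf10, an engulfment receptor, was at 0.722, 1.06 and 0.405 CPM against 99.1, 40.6 and 43.8 CPM (-6.10, SE 0.31, adjusted p = 0.00301). Rbp4, Limch1 and Mgp were the other named genes on the higher side (4.08, 3.30 and 3.09) and Cort, Bmp8a and Serpini1 on the lower side (-7.20, -5.88 and -5.62), of which Cort was at 544 CPM in Ibsp-high cells at P15 and at 7.08 and 0.715 CPM later. Calls were lost without 1 of the libraries for Rbp4 (8 weeks), Mgp (P15 and P25), Cort (P25) and Bmp8a (P15). Without the library block those of Limch1, Mgp, Rbp4 and Cort were lost, and without the low-count filter those of Mgp, Rbp4 and Dmp1. Rbp4 was also lost without the highest Scrublet scores, and Mgp when another random part of the UMIs chose the cells.

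The population was last compared with its counterpart, cells chosen by the same limits with Mmp3, Dio2 and Il1rl1 in the place of Hand2, Nts and Alx1 and the reverse (169, 341 and 36 cells). These cells carried almost no Hand2 (0, 0.277 and 4.87 CPM). Their choice had set this, since it allowed at most 2 UMIs of Hand2, Nts and Alx1. They carried more Pthlh, 460, 355 and 312 CPM against 26.9, 99.9 and 88.9 CPM (log2 fold change -2.54, SE 0.54, adjusted p = 0.0453), a call lost without P25 or 8 weeks. Of 11637 genes, 468 were higher in the Hand2/Nts/Alx1 cells (4.02%) and 748 lower (6.43%) by both thresholds, and 762 (6.55%) and 1056 (9.07%) by the adjusted p alone. With 1 library left out the first counts ranged from 116 to 607 and from 327 to 848. Ogn was at 947, 772 and 803 CPM against 98.2, 64.8 and 122 CPM (3.22, SE 0.19, adjusted p = 0.000441). Ptn, which encodes the secreted growth factor pleiotrophin, was at 2794, 7536 and 9551 CPM against 682, 316 and 419 CPM (3.74, SE 0.66, adjusted p = 0.0332), and was lost without P25 or 8 weeks, as were Thsd4 (3.07) and Sema6a (2.79). Efnb2 was higher here too (3.02, SE 0.36, adjusted p = 0.00749).

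On the lower side, the metalloproteinase gene Mmp10 was at 0.542, 0 and 0 CPM against 548, 12.9 and 4.87 CPM (adjusted p = 7.28e-05), a call lost without the library block. Sod3, the extracellular superoxide dismutase, was at 1.26, 4.44 and 2.56 CPM against 600.1, 523 and 631 CPM (log2 fold change -7.68, SE 0.39, adjusted p = 0.000652), and Stc1, which encodes the hormone stanniocalcin-1, at 1.26, 2.19 and 0 CPM against 508, 388 and 199.8 CPM (-8.24, SE 0.56, adjusted p = 0.00275). Slco1a5, an organic anion transporter, was at 0, 0.313 and 0 CPM against 39.9, 128 and 249 CPM. Cxcl5 and Slpi were the other named genes (-8.82 and -7.72), and Cxcl5, Slpi and Stc1 were lost without P15. Unlike the comparison with all other mesenchymal cells, this one had the Dlx genes among the higher. Of 13 endothelin pathway genes 5 were higher (Dlx3, Dlx4, Dlx5, Dlx6 and Mef2c) and 3 lower (Barx1, Edn3 and Ece1). Dlx5 was at 135, 51.8 and 63.5 CPM against 35.2, 9.55 and 26.8 CPM (1.997, SE 0.22, adjusted p = 0.0036), and Barx1 was lower in both comparisons, here at 52.4, 51.9 and 20.8 CPM against 327, 307 and 268 CPM (-2.93, SE 0.25, adjusted p = 0.00193). Of 15 mineral genes 1 was lower (Sparc) and 3 were higher, among them Sp7 and Runx2, transcription factors of osteoblasts, with Sp7 at 81.4, 142 and 143 CPM against 19.6, 17.8 and 9.75 CPM (2.74, SE 0.28, adjusted p = 0.00373). Of 19 cell cycle genes 14 were higher and 0 lower, with Mki67 at 43.7, 45.9 and 47.3 CPM against 8.998, 16.5 and 2.44 CPM (2.02, SE 0.36, adjusted p = 0.0175). Without P25 the calls of Dlx3, Dlx6, Mef2c, Ece1 and Runx2 were lost, and of the cell cycle genes Top2a, Mki67, Tpx2, Tyms and Hmgb2 kept theirs. Without 8 weeks the calls of Dlx3, Mef2c and Edn3 were lost. The call of Dlx5 held in 7 of 8 alternatives. Among the cell cycle genes, those of Ccnb1 and Cenpf held in 7 of 8, that of Cdk1 in 5 and that of Ccnb2 in 4.

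Within the population, levels were followed over the 3 ages, with no test because each age is 1 library. Among 832 genes that reached 100 CPM and moved in 1 direction over P15, P25 and 8 weeks, 93 were more than 2-fold higher at 8 weeks than at P15 and 41 more than 2-fold lower, and 21 and 9 of these were also more than 2-fold higher or lower in the other mesenchymal cells. Of the genes lower at 8 weeks, Sfrp2, which encodes a secreted modulator of Wnt signals, had the largest ratio, with 2001, 428 and 126 CPM, while it was at 419, 648 and 635 CPM in the other mesenchymal cells. Rbp4, the retinol carrier, was at 123, 31.0 and 13.9 CPM, against 20.8, 16.1 and 10.3 CPM. Pkdcc, a secreted tyrosine kinase, was at 303, 89.3 and 47.5 CPM, against 176, 118 and 112 CPM. Pcp4, a calmodulin-binding protein, was at 388, 96.1 and 40.7 CPM, against 658, 358 and 545 CPM, and Limch1, an actin-binding protein, at 134, 13.3 and 11.2 CPM, against 43.3, 17.4 and 15.2 CPM. The keratin gene Krt14 was at 241, 85.9 and 22.5 CPM, against 200.2, 120.1 and 34.3 CPM, and at 226.6, 105 and 28.2 CPM in immune cells, so that an epithelial transcript stood at like levels in all 3 classes of a library.

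On the other side, Bmp3, which encodes an antagonist of bone-forming BMPs, was at 58.7, 359 and 419 CPM in the cells, against 196, 199 and 303 CPM in the other mesenchymal cells. Pcsk6, a secreted proprotein convertase, was at 17.5, 110 and 138 CPM, against 27.3, 48.5 and 48.2 CPM. Both stood below the other mesenchymal cells at P15 and above them at P25 and 8 weeks, as Stmn2 did. Kit was 3.01 higher on the log2 scale at 8 weeks than at P15 in the cells, against -1.12 in the other mesenchymal cells. Ly6a (Sca-1) was at 18.1, 79.3 and 152 CPM, against 20.5, 46.8 and 189 CPM, so its change was shared (log2 ratios 3.003 and 3.14). Bglap was at 37.6, 359 and 364 CPM, against 1100, 3481 and 5272 CPM, and at 221, 377 and 155 CPM in immune cells, so that its P15 and P25 levels were not above those of cells that should lack it. The share of cells with Ibsp UMIs was also lower at P15, and its part in these differences was not tested.

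**Figure D5:**
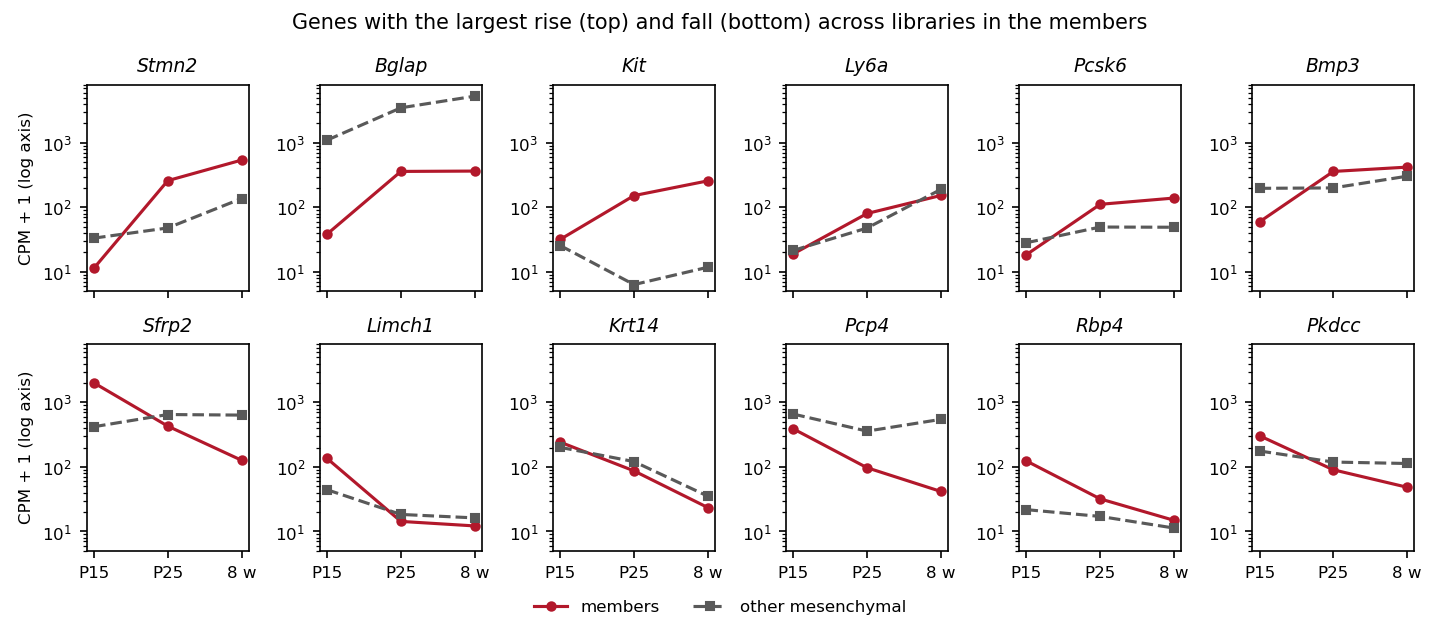
Level in CPM on a log axis of the 6 genes with the largest and the 6 with the smallest ratio of 8 weeks to P15, in Hand2/Nts/Alx1 cells and in other mesenchymal cells of the same libraries. Stmn2 (10.5 to 538 CPM) and Sfrp2 (2001 to 126 CPM) have the steepest lines in the Hand2/Nts/Alx1 cells, and Ly6a runs alike in both classes (18.1 to 152 and 20.5 to 189 CPM).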

How the data were processed

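For each of the 3 libraries the authors deposited raw UMI counts from Cell Ranger, which are whole numbers. The file headers give version 6.0.1 for P25 and 6.1.2 for the others, while the submitters' notes name 6.1.2 and mm10. The 21446 identifiers shared by the libraries were used, of which 21361 matched GENCODE M21 on GRCm38. Cells with fewer than 500 genes or more than 20% mitochondrial UMIs were left out, and possible doublets stayed in unless stated. The members and gene lists were chosen with earlier results of these data known, and the values that chose the cells carry no test.

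UMIs were summed per library and class and compared with edgeR 4.0.16 (TMM, filterByExpr, robust quasi-likelihood test, Benjamini-Hochberg adjustment over all genes tested). Both sums of a comparison come from the same library, so the library was the block, which leaves 2 residual degrees of freedom, and nothing says that the libraries are replicates of one condition. Genes and lists were called at an adjusted p under 0.05, and counts over all genes also needed a log2 fold change above 1 in size. The genes named by rule were the 12 highest and 8 lowest log2 fold changes (6 and 6 in the other comparisons) among called genes with the same direction in 3 of 3 libraries and a mean of at least 50 CPM in the higher class, outside the 9 genes of the choice and 5 further markers. For time, the 6 largest and 6 smallest ratios of 8 weeks to P15 were named among genes from 100 CPM, further markers included, with no test. On simulated data with other mesenchymal cells, edgeR recovered 90% of 2-fold and 99% of 4-fold changes among 13335 genes, with 3.57% of its calls false. Each simulated class difference was the same at every age, and none was given to the lowest genes. The rates therefore do not cover differences that change with age, as some did here.

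Intervals at 95% were by Clopper and Pearson for shares and by Poisson for levels and cover counting error only. Shares of cells with a UMI were taken after thinning to 5000 UMIs per cell, without shallower cells. Figures use log2(CPM + 1) where stated. Alternatives changed the UMI limits, denominators, doublets (Scrublet in scanpy 1.11.5), block, tool (DESeq2 1.42.0), low-count filter, the UMIs that choose cells, depth, gene join, comparison cells and the libraries used. Computations ran in Python 3.11.15 (numpy 2.4.6, pandas 2.3.3, scipy 1.17.1) and R 4.3.3. The study's P6 library, spatial data and RNA velocity were not analysed here, and some named genes are not reported here.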

Additional observations from a re-analysis of the deposited data

Results flagged for a closer look

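Among the further markers and the genes chosen by the naming rule, 9 had levels for which the Hand2/Nts/Alx1 cells stood on one side of the other mesenchymal cells at P15 and on the other side at 8 weeks, beyond counting error at both ages. Stmn2, Bmp3, Pcsk6, Sfrp2, Limch1, Pkdcc and Krt14 had been named for the largest change from P15 to 8 weeks, which favours such a result. Genes named only as members of a list, such as Tubb3, were not screened for this, and the share over all genes was not counted. Each time point is 1 library, so none of these differences was tested. The log2 ratio of the 2 classes, log2(CPM + 1) in each, was 3.52 higher at 8 weeks than at P15 for Stmn2 (-1.54 at P15, 2.43 at P25 and 1.98 at 8 weeks), 2.19 higher for Bmp3 (-1.72, 0.85 and 0.47), 2.11 higher for Pcsk6 (-0.61, 1.17 and 1.502), 1.91 higher for Ptn (-0.62, 1.37 and 1.29) and 1.64 higher for Sema6a (-0.37, 1.16 and 1.27). In all 5 the P25 library stood with 8 weeks.

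The ratio changed in the other direction for Sfrp2, by -4.58 (2.25, -0.60 and -2.32), for Limch1, by -2.02 (1.61, -0.36 and -0.41), for Pkdcc, by -2.01 (0.78, -0.40 and -1.22), and for the keratin gene Krt14, by -0.85 (0.27, -0.48 and -0.59). Krt14 was at 226.6, 105 and 28.2 CPM in immune cells of the same libraries. The share of Ibsp in the cells also differed between P15 and the later libraries, and its part was not tested.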

How the results depend on the processing

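The share of Hand2/Nts/Alx1 cells was 2.03% at P15 and 8.47% at P25 after thinning, 2.09%, 10.1% and 12.6% of all deposited cells, and 3.08% and 12.5% of mesenchymal cells at P15 and P25 (added after seeing the data). Against other mesenchymal cells, without the library as the replicate block 40 genes were higher and 96 lower (38 and 95 of them shared with the blocked fit), with DESeq2 253 and 791 (122 and 433 shared), and against cells below the Ibsp limit, added after seeing the data, 58 and 223 (52 and 216 shared), where Fgf9 turned to 0.56. Leaving out 1 library gave 0 to 352 higher and 0 to 1006 lower genes, with none without P25. Against all other kept cells the fit without block gave 82 and 377, and leaving out 1 library 29 to 287 and 180 to 1353. Against the Mmp3, Dio2 and Il1rl1 cells, leaving out 1 library gave 116 to 607 and 327 to 848. Against Ibsp-high cells the fit without block gave 264 higher genes, and leaving out 1 library 78 to 545 and 124 to 595. Against Ibsp-high cells with Hand2, Nts and Alx1, the fit without block gave 123 and 130, and leaving out 1 library 170 to 570 and 139 to 333. The cause of these changes was not tested, except that fits without a library have fewer samples. The planned comparison of cells with and without Nts was not run, since 7, 4 and 0 cells had none. Depth limits genes of a few CPM. Of the sums of Hand2/Nts/Alx1 cells the one at P15 was the smallest, with 5538985 UMIs. Some compared classes summed to less, with 410340 UMIs in the Mmp3, Dio2 and Il1rl1 cells at 8 weeks. The Ibsp-high cells with Hand2, Nts and Alx1 summed to 556864 UMIs at P15.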

Other observations

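Some genes outside the lists, chosen after their values were seen, were higher in the Hand2/Nts/Alx1 cells. Epb41l4a, which encodes a band 4.1 cytoskeletal protein, was at 26.4, 16.1 and 19.2 CPM against 1.83, 0.928 and 0.861 CPM in the other mesenchymal cells (log2 fold change 4.10, SE 0.17, edgeR adjusted p = 0.0087). Prtg, which encodes the neural crest adhesion protein protogenin, was at 56.5, 22.5 and 28.5 CPM against 6.76, 4.22 and 5.68 CPM (2.60, SE 0.19, adjusted p = 0.011). Piezo2, a mechanically gated ion channel, was at 41.2, 22.1 and 22.9 CPM against 9.90, 5.03 and 6.17 CPM (2.02, SE 0.10, adjusted p = 0.0087). Cacna1d, a subunit of voltage-gated calcium channels, was at 18.1, 29.0 and 29.7 CPM against 3.99, 3.65 and 4.25 CPM (2.66, SE 0.18, adjusted p = 0.00889).

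Lypd6, a membrane-bound protein that binds Wnt receptors, was at 7.58, 7.32 and 8.77 CPM against 1.36, 0.427 and 0.574 CPM (3.46, SE 0.41, adjusted p = 0.0246). All 5 genes were higher in 3 of 3 libraries without overlap between the classes, which their choice by value favours. The share of all genes without overlap was not counted. Without P25 no gene passed in this comparison, so these 5 calls were lost there too.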
